A study of Homo sapiens with 12 samples.

Results

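The genes CDKN2A, CDKN2B, MTAP and KLHL9 lie close together on chromosome 9 (band 9p21), a region that esophageal carcinomas often lose. They are 4 of the 20045 genes named on the array, and were read through all probes whose annotation names one of them and no other, which gave 8 of the 47319 probes used: 3 for CDKN2A, 3 for CDKN2B, 1 for MTAP and 1 for KLHL9. RNA was measured on 12 Illumina expression BeadChips in 4 groups of 3 arrays from established esophageal carcinoma lines, OE21 (squamous cell carcinoma) and OE33 (adenocarcinoma arising in Barrett's esophagus). The groups were OE21 cells given STAT3 siRNA, OE21 cells given a negative control siRNA, OE33 cells given STAT3 siRNA and OE33 cells given the control siRNA. The STAT3 siRNA was a pool of 4 sequences used at 100 nM in 2 transfections, and cells were compared 72 h after the first. OE21 was transfected with siPORT NeoFX and OE33 with DharmaFECT, so line and reagent cannot be told apart. Each tumour type is represented by a single line, and all 4 groups had been transfected with an siRNA.

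CDKN2A encodes a pair of unrelated tumour suppressors from alternative first exons: p16INK4a, which inhibits the cyclin D kinases CDK4 and CDK6 and so keeps RB active, and p14ARF, which binds MDM2 and stabilises p53. CDKN2B, next to it, encodes p15INK4b, another inhibitor of CDK4 and CDK6 that is induced by TGF-beta. MTAP (methylthioadenosine phosphorylase) breaks down the by-product of polyamine synthesis and returns it to methionine, and KLHL9 is a substrate adaptor of the CUL3 ubiquitin ligase that acts on Aurora B in mitosis. Deletions of 9p21 in tumours commonly take CDKN2A, with or without its neighbours, and the CDKN2A promoters can also be silenced by DNA methylation. The arrays measured RNA only; gene copy number and methylation were not measured here.

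The windows of 250 bases before the starts of the genes whose probes differed most between the lines are shown because they hold the CpG dinucleotides, given in capitals, at which promoter methylation occurs. The sequences are those of RefSeq on GRCh38.p14, written 5′ to 3′ on the gene's own strand, which is the minus strand in these 3 windows: the start of the p16INK4a transcript (chr9:21974858-21975107), the start of the p14ARF transcript (chr9:21995325-21995574) and the start of CDKN2B (chr9:22009306-22009555).
CDKN2A p16INK4a start: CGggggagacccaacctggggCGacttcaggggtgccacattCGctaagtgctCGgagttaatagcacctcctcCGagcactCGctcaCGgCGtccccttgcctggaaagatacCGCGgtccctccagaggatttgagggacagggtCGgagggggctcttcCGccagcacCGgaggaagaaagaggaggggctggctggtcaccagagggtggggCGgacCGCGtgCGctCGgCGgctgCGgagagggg
CDKN2A p14ARF start: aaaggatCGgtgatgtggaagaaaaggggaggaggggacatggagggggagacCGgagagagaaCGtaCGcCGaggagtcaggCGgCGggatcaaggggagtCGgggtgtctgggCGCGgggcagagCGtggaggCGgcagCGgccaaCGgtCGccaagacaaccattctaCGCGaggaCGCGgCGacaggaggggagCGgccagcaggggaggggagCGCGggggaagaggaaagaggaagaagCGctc
CDKN2B start: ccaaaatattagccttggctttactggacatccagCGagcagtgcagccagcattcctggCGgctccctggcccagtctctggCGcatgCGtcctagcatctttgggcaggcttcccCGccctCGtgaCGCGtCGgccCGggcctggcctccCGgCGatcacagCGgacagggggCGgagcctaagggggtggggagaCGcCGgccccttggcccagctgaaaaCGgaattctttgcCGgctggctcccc
The p16INK4a window holds 20 CpG dinucleotides at a GC content of 66.8%, the p14ARF window 24 at 66.8% and the CDKN2B window 18 at 66.4%, against a median of 11 and 58% over 35116 promoter windows of this length. The 75th percentiles over those windows were 23 and 68%, and only the CpG count of the p14ARF window exceeded them. The KLHL9 window (chr9:21335405-21335654, minus strand) holds 16 at 62.8%, and the MTAP window (chr9:21802386-21802635, plus strand) holds 11 at 50%. Both strands were searched for the letters TTCNNNGAA, a STAT dimer motif present in 6.57% of all windows, and 0 of the 5 windows of the set held it. The letters TATAAA, present in 10.7% of all windows, stood 215 bases before the start of MTAP, and TTTNNCGC, an E2F motif present in 5.92%, stood 249 bases before the start of KLHL9. These are matches of letters in a reference genome, not binding measured in the cells.

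A probe was counted as detected on an array when its deposited detection p was under 0.01, which held for 18034 to 19149 probes per array (38.1% to 40.5%). Values are log2 intensities after background correction and quantile normalisation. Log2 intensities correlated across probes at 0.974 to 0.988 between arrays of a line and at 0.904 to 0.923 between the lines. Of 6 squamous markers, all were detected on all 6 OE21 arrays, whereas in OE33 KRT5, KRT14 and DSG3 were detected on 0 of 6 arrays, SOX2 on 1, and KRT13 and TRIM29 on all 6. Of 10 columnar and intestinal markers, KRT8, KRT18 and CDX2 were detected on all OE33 arrays and the other 7, among them KRT20, CDH17, VIL1 and TFF3, on 0, and in OE21 only KRT18 was detected, so OE33 matched its label as a columnar line in part only. Of 8 markers of other cell types, COL3A1, PTPRC, CD3E and PECAM1 were detected on 0 arrays of either line. CD68 was detected on all 12 arrays, COL1A1 on 3 OE21 arrays and 1 OE33 array, COL1A2 on 5 and 2, and VWF on 6 and 0. The part of other cell types in the results was not tested. The 3 probes of the siRNA's target, STAT3, differed between STAT3 siRNA and control cells by -1.999, -2.12 and -2.001 on the log2 scale in OE21, of which the first was called (adjusted p = 0.04982, limma) and the others were not (adjusted p = 0.2192). With any 1 of the 6 OE21 arrays left out, 0 probes were called. In OE33 the same probes differed by -0.28, -0.55 and -0.55, and none was called (adjusted p = 0.9863, limma).

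The p16INK4a and p14ARF probes of CDKN2A were near background in OE21 and bright in OE33. The p16INK4a probe (ILMN_1717714) had 4.45, 4.21 and 4.48 in OE21 cells given STAT3 siRNA and 4.36, 4.80 and 4.25 in OE21 control cells. It had 10.84, 10.61 and 10.92 in OE33 cells given STAT3 siRNA and 10.75, 10.51 and 10.87 in OE33 control cells. It was detected on 0 of 6 OE21 arrays and on all 6 OE33 arrays, and 5.72 log2 units separated the highest OE21 array from the lowest OE33 array. In the deposited intensities, before any correction, the OE21 arrays lay between 88.9 and 112 and the OE33 arrays between 1613 and 2012.

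The p14ARF probe (ILMN_1744295) had 4.19, 5.02 and 4.21 in OE21 cells given STAT3 siRNA and 4.20, 4.22 and 4.20 in OE21 control cells. It had 9.24, 9.34 and 9.57 in OE33 cells given STAT3 siRNA and 9.22, 9.08 and 9.30 in OE33 control cells. This probe too was detected on 0 of 6 OE21 arrays and all 6 OE33 arrays. The third CDKN2A probe (ILMN_1757255), annotated to a further transcript of the gene, was detected on 1 array only, OE21 with STAT3 siRNA, replicate 2, at 5.23. It lay between 4.14 and 4.47 on the other OE21 arrays and between 4.23 and 4.59 on the OE33 arrays, and it was not tested. CDKN2A transcripts share exons, and which exons each probe reads was not checked here.

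In control siRNA cells the p16INK4a probe averaged 4.47 ± 0.29 in OE21 and 10.71 ± 0.18 in OE33 (log2 intensity, SD, n = 3 each), which was at least 68.1-fold higher in OE33 (adjusted p = 1.768e-10, limma). Where a probe was detected on 0 arrays of a group, the fold is written as at least a value. That value takes, on each such array, the probe's own signal or the lowest signal of any detected probe, whichever is higher. It is no limit of detection, since undetected probes can lie above that lowest signal. It holds only for the background correction used here, and other treatments gave smaller differences for the p16INK4a and p14ARF probes, as given below. In STAT3 siRNA cells the p16INK4a probe averaged 4.38 ± 0.15 in OE21 and 10.79 ± 0.16 in OE33, at least 77.9-fold higher in OE33 (adjusted p = 1.48e-10, limma). The p14ARF probe was at least 25.6-fold higher in OE33 than in OE21 among control cells (adjusted p = 2.981e-09, limma) and at least 26.1-fold among STAT3 siRNA cells (adjusted p = 3.306e-09, limma).

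CDKN2B followed the same order on 2 of its 3 probes. ILMN_2376723 had 4.42, 4.27 and 4.26 in OE21 cells given STAT3 siRNA and 4.24, 4.38 and 4.33 in OE21 control cells. It had 7.93, 8.15 and 7.85 in OE33 cells given STAT3 siRNA and 7.69, 8.49 and 7.78 in OE33 control cells. It was detected on 0 of 6 OE21 arrays and all 6 OE33 arrays, and was at least 11.03-fold higher in OE33 control cells than in OE21 control cells (adjusted p = 2.715e-08, limma) and at least 11.1-fold higher among STAT3 siRNA cells (adjusted p = 2.54e-08, limma).

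ILMN_1723198, annotated to the other CDKN2B transcript and dimmer, had 4.56, 5.08 and 5.25 in OE21 cells given STAT3 siRNA and 4.75, 4.58 and 4.70 in OE21 control cells. It had 5.87, 6.42 and 5.96 in OE33 cells given STAT3 siRNA and 5.92, 6.56 and 6.66 in OE33 control cells. It was detected on 2 of 6 OE21 arrays, 1 in each group, and on all 6 OE33 arrays, and the lines did not overlap. Its OE21 minus OE33 difference was -1.70 (SE 0.24) in control cells (adjusted p = 0.0001121, limma) and -1.12 (SE 0.24) in STAT3 siRNA cells (adjusted p = 0.002277, limma). The remaining CDKN2B probe (ILMN_1670111), annotated to the same transcript as ILMN_2376723, was detected on 0 of 12 arrays, at 4.17 to 4.64 in OE21 and 4.22 to 4.88 in OE33, and was not tested.

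**Figure D1:**
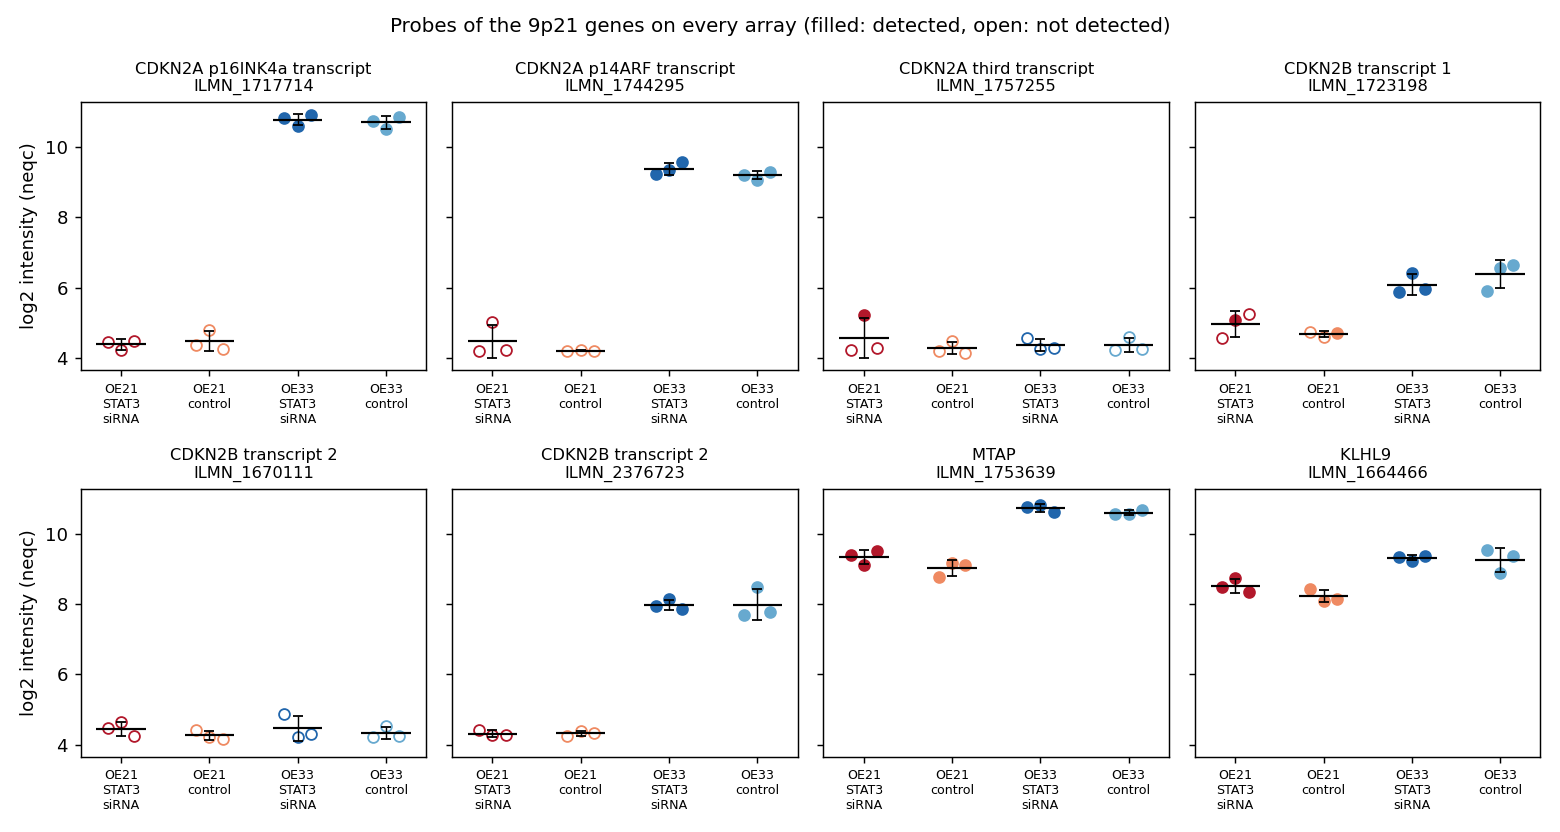
Log2 intensity (vertical axis) of the 8 probes of CDKN2A, CDKN2B, MTAP and KLHL9 on each array, by group (horizontal axis: OE21 STAT3 siRNA, OE21 control, OE33 STAT3 siRNA, OE33 control, n = 3 each); filled points are detected, open points are not, and bars are group means with SD. The p16INK4a probe lies between 4.21 and 4.80 on the OE21 arrays and between 10.51 and 10.92 on the OE33 arrays, while MTAP and KLHL9 are detected on all 12 arrays.

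MTAP was clearly expressed in both lines, at a lower level in OE21. Its probe (ILMN_1753639) had 9.41, 9.12 and 9.51 in OE21 cells given STAT3 siRNA and 8.77, 9.18 and 9.13 in OE21 control cells, against 10.77, 10.82 and 10.62 in OE33 cells given STAT3 siRNA and 10.58, 10.57 and 10.68 in OE33 control cells. It was detected on all 12 arrays, with 1.06 log2 units between the highest OE21 array and the lowest OE33 array. MTAP RNA in OE21 was 33.4% of that in OE33 in control cells (95% interval 26.2% to 42.5%; log2 difference -1.58, SE 0.16; adjusted p = 7.241e-06, limma). In STAT3 siRNA cells it was 38.1% (29.9% to 48.5%; adjusted p = 2.004e-05, limma).

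KLHL9 was likewise detected in both lines and lower in OE21. Its probe (ILMN_1664466) had 8.49, 8.74 and 8.35 in OE21 cells given STAT3 siRNA and 8.44, 8.10 and 8.16 in OE21 control cells, against 9.34, 9.24 and 9.38 in OE33 cells given STAT3 siRNA and 9.54, 8.89 and 9.37 in OE33 control cells. The lines did not overlap, but only 0.15 log2 units lay between the highest OE21 array and the lowest OE33 array. KLHL9 RNA in OE21 was 49.0% of that in OE33 in control cells (36.9% to 65.0%; log2 difference -1.03, SE 0.19; adjusted p = 0.0008107, limma) and 57.7% in STAT3 siRNA cells (43.5% to 76.7%; adjusted p = 0.004459, limma). In cultures measured whole, fewer cells with an RNA and less of it per cell cannot be told apart.

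All 6 tested probes were thus called lower in OE21, in control cells and again in STAT3 siRNA cells. Across all probes tested, 21.4% were called lower in OE21 among control cells, 23.2% among STAT3 siRNA cells and 17.6% in both; 42% and 44% were called in either direction. All 6 OE21 arrays lay below all 6 OE33 arrays for each of the 6 probes, as for 18.6% of all probes tested, while 17.3% had all OE21 arrays above. Detection on 0 OE21 arrays and all 6 OE33 arrays, seen for the p16INK4a and p14ARF probes and for ILMN_2376723 of CDKN2B, held for 1.69% of all probes tested. These 3 probes entered the test only through the OE33 arrays, and ILMN_1723198, detected on 2 OE21 arrays, needed them too, so their calls could hardly have gone the other way. MTAP and KLHL9 were detected on all arrays of both lines.

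The sizes for the dim probes depended on how background was treated, while their direction and call did not. In control cells the p16INK4a difference was -6.24 (SE 0.18) as analysed, -4.13 without background correction and -4.03 in the authors' normalized values. The p14ARF difference was -4.99 (SE 0.21), -2.92 and -2.81, and that of ILMN_2376723 was -3.67 (SE 0.20), -1.82 and -1.74, in the same order. For ILMN_1723198 it was -1.70, -0.64 and -0.60. For the probes detected in both lines the change was small: MTAP gave -1.58, -1.44 and -1.44, and KLHL9 gave -1.03, -0.86 and -0.85.

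The neighbours of the 4 genes along the chromosome arm did not share one direction. Of 42 further genes of this stretch on the array, 20 passed the filter on detection and 22 did not, among the latter the alpha interferon genes of the cluster around KLHL9. Among the 20, between OE21 and OE33 control cells, 4 were called higher in OE21 and 4 lower (20% each), against 23.4% and 24.1% over all genes taken by 1 probe each, and their median log2 difference was 0.08, against -0.01 over all genes. Of the 8 called, TUSC1, IFNB1 and LINGO2 were detected on 0 OE33 arrays, DMRTA1 on 0 OE21 arrays and CDKN2B-AS1 on 1, so these 5 entered the test through the line where they were high and the split into higher and lower supports nothing by itself.

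CDKN2B-AS1, the antisense RNA (ANRIL) that starts between CDKN2A and CDKN2B and recruits Polycomb proteins to them, was lower in OE21 by its tested probe. That probe was detected on 1 of 6 OE21 arrays, with values from 4.29 to 4.98, and on all 6 OE33 arrays, with values from 6.004 to 6.50. The difference was -1.76 (SE 0.18) in control cells (adjusted p = 7.631e-06, limma), but -0.67 without background correction and -0.64 in the authors' normalized values. Whether its probe is free of signal from the overlapping CDKN2B transcripts was not checked. DMRTA1, the next gene beyond CDKN2B, was detected on 0 of 6 OE21 arrays (4.31 to 4.64) and all 6 OE33 arrays (5.38 to 6.03), at least 2.31-fold higher in OE33 control cells (adjusted p = 0.0001592, limma).

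TUSC1, the next tested gene after DMRTA1, ran the other way: it was detected on all 6 OE21 arrays (7.80 to 8.26) and 0 of 6 OE33 arrays (4.14 to 4.33), at least 12.2-fold higher in OE21 control cells (adjusted p = 2.705e-09, limma). IFNE, an epithelial type I interferon gene lying between KLHL9 and MTAP, was detected by its 3 probes on 6, 5 and 3 of 6 OE21 arrays and on 1, 0 and 0 of 6 OE33 arrays. These 3 probes passed the filter through OE21 arrays. By its brightest probe IFNE differed by 0.77 (SE 0.29) in control cells, which was not called (adjusted p = 0.05225, limma). In STAT3 siRNA cells it differed by 1.58, which was called (adjusted p = 0.0009127, limma). A second probe was called in control cells (0.82, adjusted p = 0.01838, limma). The third was not called there (0.06, adjusted p = 0.8697, limma), but was in STAT3 siRNA cells (0.93, adjusted p = 0.009161, limma). Beyond KLHL9 on its other side, IFNB1, the interferon beta gene, was detected on all 6 OE21 arrays and 0 of 6 OE33 arrays, at least 2.09-fold higher in OE21 control cells (adjusted p = 0.007365, limma). RNA from genes on both sides of KLHL9, and between KLHL9 and MTAP, was detected in OE21. The signal was low, at 4.71 to 6.57 for IFNB1 and 5.00 to 6.53 for the brightest IFNE probe. Gene copy number there was not tested.

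Farther out on the KLHL9 side, HACD4, an enzyme of fatty acid elongation, differed by 0.17 (SE 0.19), and FOCAD, a focal adhesion gene, by 0.02 (SE 0.17; 95% interval -0.34 to 0.38). Neither was called (adjusted p = 0.5173 and 0.9454, limma). MLLT3, a chromatin reader, was lower in OE21 (-0.64, SE 0.19, adjusted p = 0.01601, limma). ACER2, RPS6, DENND4C, HAUS6 and RRAGA were not called by their brightest probes, though a second DENND4C probe was (-1.27, adjusted p = 0.01013, limma). PLIN2, which coats lipid droplets, had the largest difference of the neighbours, -5.15 (SE 0.28, adjusted p = 2.747e-08, limma), and was detected on 4 of 6 OE21 arrays and all 6 OE33 arrays. On the far side of TUSC1, CAAP1, PLAA, MOB3B and C9orf72 were not called, IFT74 was higher in OE21 by 1.02 in log2 (SE 0.26, adjusted p = 0.006976, limma), and LINGO2 was at least 3.13-fold higher in OE21 (adjusted p = 4.739e-07, limma).

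**Figure D2:**
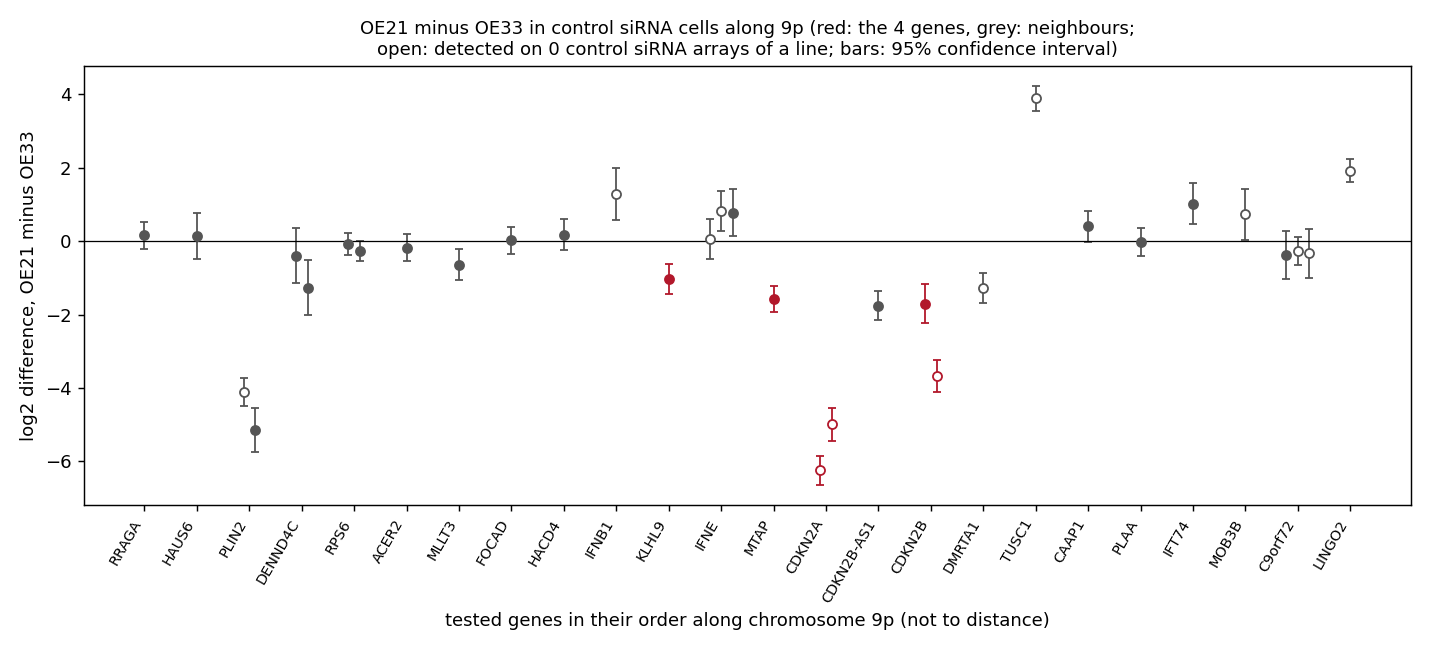
OE21 minus OE33 log2 difference in control siRNA cells (vertical axis) for each tested probe of the 9p neighbours and of the 4 genes, in their order along the chromosome arm, not to scale (horizontal axis). Bars are 95% intervals and red marks the 4 genes. Open points were detected on 0 control siRNA arrays of a line. They show the fitted difference, not the at-least fold of the text, and their size depends on the background correction. KLHL9, MTAP, CDKN2A and CDKN2B lie below 0, from -1.03 to -6.24, while IFNB1 and TUSC1 on either side lie above 0.

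The partners of p16INK4a and p15INK4b in the RB pathway changed in both directions between the lines. Of 14 measured genes, 5 were higher in OE21 control cells, 2 were lower and 7 were not called, against 23.4% higher and 24.1% lower over all genes, with a median of 0.12. In STAT3 siRNA cells 3 were higher and 5 lower, against 24.3% and 24.7% over all genes, with a median of -0.01. CCND1, the D-type cyclin that activates CDK4 and CDK6, was higher in OE21 by 1.39 (SE 0.28, adjusted p = 0.001574, limma), and by 1.72 in STAT3 siRNA cells. E2F2, a transcription factor restrained by RB, was higher by 1.30, RB1 itself by 0.92 and E2F4 by 0.67; the fifth was TFDP1, the E2F partner, at 0.55. RBL2, an RB relative, was lower (-0.57), as was E2F3 (-0.47). The kinases that p16INK4a binds differed by 0.26 (CDK4) and 0.12 (CDK6) and were not called (adjusted p = 0.2745 and 0.7515, limma). The 2 lower calls of this list became 1 or 0 when any 1 of the 6 control arrays was left out.

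Of 4 measured CDK inhibitors from other loci, CDKN1A, the p53 target p21, was called higher in OE21 control cells (0.86, SE 0.30, adjusted p = 0.03686, limma) and 3 were not called. The CDKN1A call is marginal: the list's count of higher genes was 0 without OE21 control replicate 1, 2 or 3 or without OE33 control replicate 1 or 3, and 2 without OE33 control replicate 2. In STAT3 siRNA cells CDKN1A was higher in OE21 by 1.76 (adjusted p = 0.0005063, limma). Of 7 listed genes of the p14ARF to p53 route, 6 were on the array and 3 were tested, and MDM2 and p53 were not among these 3. CDKN1A, counted in this list too, was thus higher. TRIP12, a ubiquitin ligase that turns over ARF, was lower (-0.90, SE 0.24, adjusted p = 0.01072, limma), and 1 was not called. The count of lower genes was 2 without OE21 control replicate 1 or without OE33 control replicate 3.

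Of 21 measured regulators of CDKN2A and CDKN2B, 6 were called higher and 5 lower in OE21 control cells, and 10 were not called, with a median of -0.15. These shares, 28.6% and 23.8%, lie near the 23.4% and 24.1% over all genes. The Polycomb genes, whose products repress the locus, split. CBX2, a Polycomb reader, was detected on all 3 OE21 and 2 of 3 OE33 control arrays and was higher in OE21 by 4.09 (SE 0.22, adjusted p = 2.452e-08, limma), while EED and SUZ12, core subunits of PRC2, were lower (-0.73 and -0.68). The PRC2 enzyme EZH2 differed by -0.15 in control cells, which was not called (adjusted p = 0.6181, limma), and was lower in OE21 among STAT3 siRNA cells (-0.94, adjusted p = 0.004214, limma). KDM2B, a demethylase that represses the locus, was higher by 1.07 and TBX3, a repressor, by 0.87. Among activators, ETS2 was higher by 2.13 (SE 0.17, adjusted p = 7.673e-07, limma), whereas FOXO3 (-1.48) and the TGF-beta effector SMAD3 (-0.85) were lower. Other TGF-beta effectors did not follow SMAD3: SMAD4 was higher (0.40, adjusted p = 0.04251, limma) and SMAD2 was not called (-0.29, adjusted p = 0.2823, limma). MYC, which represses CDKN2B, was lower (-0.81). The count of higher regulators was 3 without OE21 control replicate 3 or without OE33 control replicate 1.

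Genes of methionine salvage and polyamine metabolism, in which MTAP acts, included 6 lower and 3 higher in OE21 control cells among 22 measured, with 13 not called and a median of -0.26. The share lower, 27.3%, lies near the 24.1% over all genes, and 13.6% were higher, against 23.4%. Downstream of MTAP in the salvage route, MRI1, the isomerase that takes its product, was lower (-0.85, SE 0.15, adjusted p = 0.0006684, limma), as was APIP, the next enzyme (-0.73, SE 0.23, adjusted p = 0.02376, limma). SAT1, which acetylates polyamines for export (-1.62), AHCY, which clears S-adenosylhomocysteine (-0.98), and SMS, the spermine synthase that makes the MTAP substrate as a by-product (-0.81), were lower too. SRM, the spermidine synthase, was higher by 0.85, and PAOX, a polyamine oxidase, by 2.37 (SE 0.23, adjusted p = 5.104e-06, limma). PRMT5, the arginine methyltransferase that the MTAP substrate inhibits, differed by 0.37 and was not called (adjusted p = 0.1332, limma), and MAT2A, which makes S-adenosylmethionine, differed by 0.04 (adjusted p = 0.9087, limma). In STAT3 siRNA cells 9 of the 22 were lower and 3 higher, beside 24.7% and 24.3% of all genes taken by 1 probe each.

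In the CUL3 ligase list, to which KLHL9 belongs by function, 5 of 10 measured genes were higher in OE21 control cells, 0 were lower and 5 were not called. Over all genes taken by 1 probe each, 23.4% were higher and 24.1% lower. CUL3 itself was not among the 10, which include AURKB, the gene of the target Aurora B. The list's median was 0.45, and in STAT3 siRNA cells 4 were higher and 0 lower, with a median of 0.42. KLHL13, the partner with which KLHL9 acts on Aurora B, was detected on all 3 OE21 control arrays and 0 of 3 OE33 control arrays and was at least 9.46-fold higher in OE21 (adjusted p = 9.929e-07, limma). It was detected on 0 of 3 OE33 arrays with STAT3 siRNA too. KLHL13 thus entered the test only through the OE21 arrays, and its call, counted among the higher genes, could hardly have gone the other way. KLHL21, a further mitotic adaptor, was higher by 0.95, COPS5, a subunit of the COP9 signalosome, by 0.79, AURKB by 0.74 and NEDD8 by 0.53. AURKB differed by 0.24 in STAT3 siRNA cells and was not called there (adjusted p = 0.2798, limma).

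**Figure D3:**
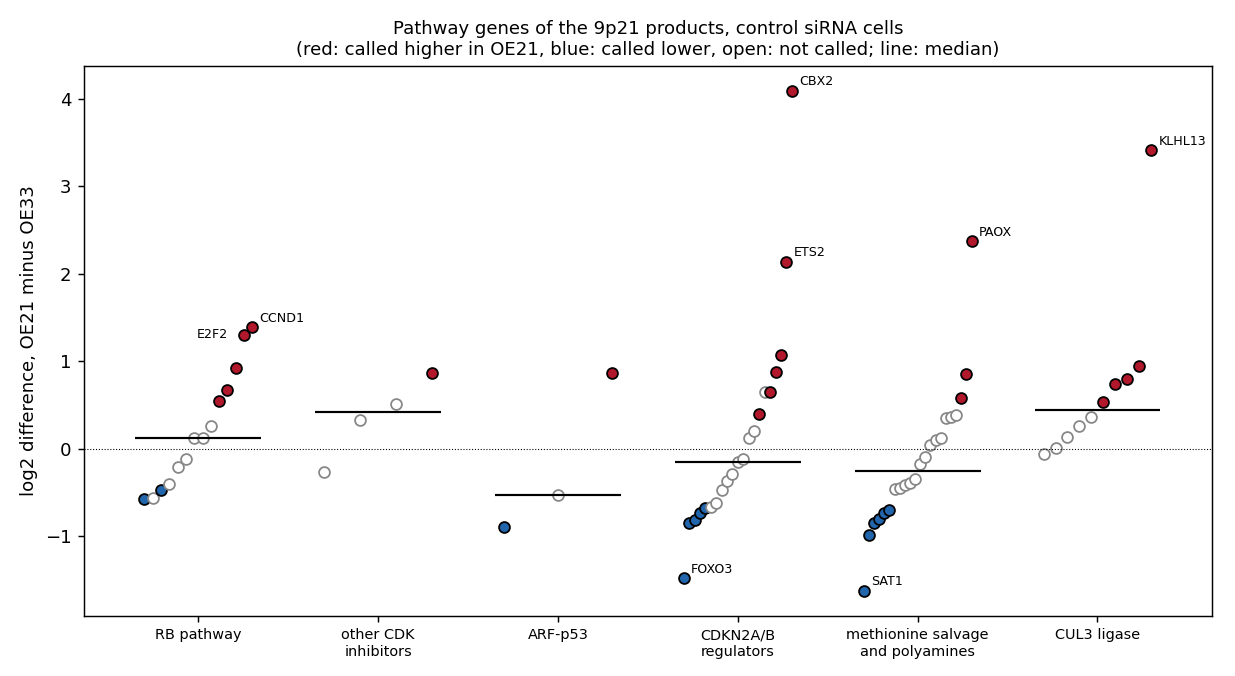
OE21 minus OE33 log2 difference in control siRNA cells (vertical axis) for the measured genes of each list (horizontal axis), with genes called higher in OE21 in red, those called lower in blue, others open, and the list median as a line. RB pathway genes and regulators lie on both sides of 0, while the called CUL3 ligase genes all lie above it.

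STAT3 siRNA left no called change in any tested probe of the 4 genes. In OE21, where only MTAP and KLHL9 could be tested, MTAP differed by 0.32 between STAT3 siRNA and control cells (SE 0.18, 95% interval -0.10 to 0.74, adjusted p = 0.5757, limma) and KLHL9 by 0.29 (SE 0.17, -0.11 to 0.69, adjusted p = 0.585, limma). The arrays of the groups overlapped for both genes. In OE33 the p16INK4a probe differed by 0.07 (SE 0.16, 95% interval -0.31 to 0.46), the p14ARF probe by 0.18 (SE 0.15), MTAP by 0.13 (SE 0.14) and KLHL9 by 0.05 (SE 0.19). The CDKN2B probes differed by -0.30 (SE 0.25) and -0.01 (SE 0.23). Adjusted p over these 6 probes ran from 0.9863 to 0.9991 (limma). The STAT3 probes themselves differed in OE33 by only -0.28, -0.55 and -0.55 and were not called, so a stronger loss of STAT3 was not tested there.

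Few probes of any gene passed this test. In OE21, 1 of 18809 probes was called (0.00532%), the STAT3 probe given above, with 1958 (10.4%) at an unadjusted p under 0.05. In OE33 limma called 0 of 18030 probes, with 582 (3.23%) at an unadjusted p under 0.05. CDKN2B-AS1 in OE33 had a lower value on each STAT3 siRNA array than on each control array (-0.30, SE 0.14), but was not called (adjusted p = 0.9863, limma). Of the listed pathway genes, 0 were called in either line. With 3 arrays against 3, an exact permutation test of a single probe cannot reach p below 0.1.

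The siRNA effect was not shown to differ between the lines for any probe of the set. Its value in OE21 minus that in OE33 was 0.19 for MTAP (SE 0.23, 95% interval -0.30 to 0.68), 0.24 for KLHL9 (SE 0.27, -0.34 to 0.82) and 0.58 for ILMN_1723198 of CDKN2B (SE 0.34, -0.15 to 1.32), with adjusted p of 0.8939, 0.8869 and 0.8067 (limma). Over all 21659 probes 0 were called in this comparison, with 1389 (6.41%) at an unadjusted p under 0.05. The p16INK4a, p14ARF and ILMN_2376723 probes were below detection in OE21, so their siRNA effect there has no value.

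**Figure D4:**
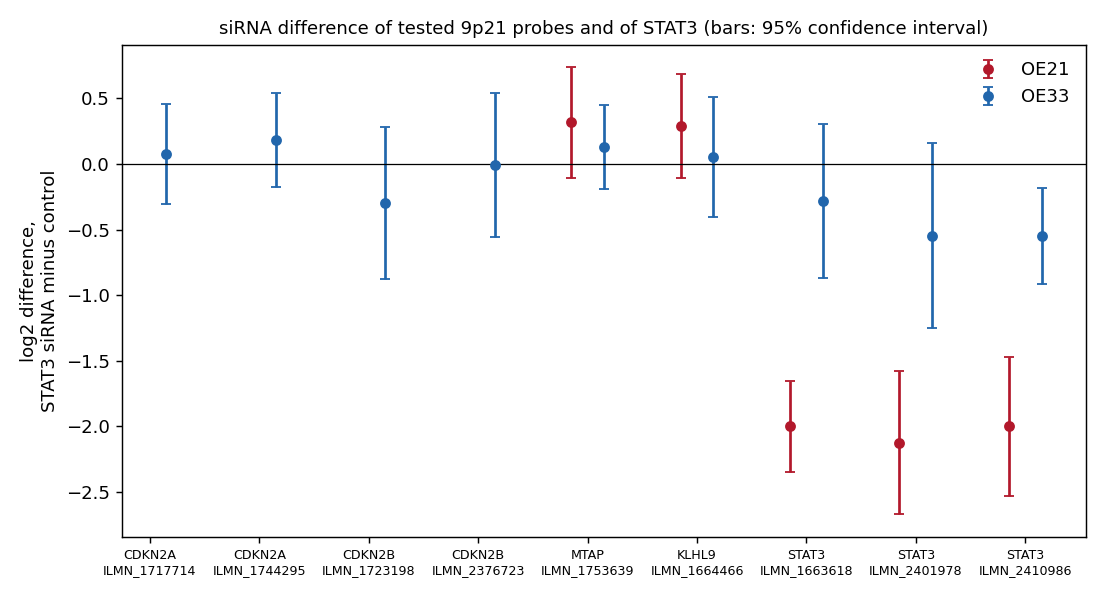
STAT3 siRNA minus control log2 difference (vertical axis) with 95% intervals for each tested probe of the set and for STAT3 (horizontal axis), in OE21 in red and OE33 in blue. Every interval of CDKN2A, CDKN2B, MTAP and KLHL9 includes 0, with values from 0.32 to -0.30, while the STAT3 probes in OE21 lie between -2.12 and -1.999.

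By Pearson correlation of log2 intensity over the 12 arrays, the named genes most like the brightest CDKN2A probe were FAM174B, CDC42EP5 and GSTO2 (r of 0.999 each), all 3 detected on 0 OE21 arrays and all 6 OE33 arrays. The brightest CDKN2B probe was closest to AADACP1, TMC5 and CAPZA2 (0.999 to 0.998), MTAP to IL15RA, LIPG and TIMP1 (0.991 each) and KLHL9 to GALK1, DFFB and CUTA (0.986 to 0.982). The 12 genes lie on chromosomes other than 9. Arrays of one line share their line and transfection reagent, and r over the 12 arrays includes the step between the lines.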

How the data were processed

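The members and the gene lists were chosen with earlier results of these data known. Per the labels' protocols, total RNA extracted on RNeasy Plus columns was labelled with a MessageAmp kit. The authors deposited linear probe intensity for each array, without normalization, and a detection p-value for each intensity, whose computation was not given in the sources used here. A second deposited table holds intensity values the authors had normalized (linear, not centred, array medians 106.4 to 107.2), by a method not given in the sources used here, and gave one of the alternatives.

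Of 47323 probes, 4 with missing values were left out. The platform annotation gave 30111 probes 1 gene symbol, 8 several and 17200 none. For 30072 of the probes with 1 symbol the Entrez identifier was found in the RefSeq gene table of GRCh38.p14, and 0 symbols changed. Intensities were corrected and normalized with neqc of limma 3.58.1 (R 4.3.3), which inferred the background from detection p-values and added an offset of 16. Probes were tested if detected (p under 0.01) on 3 or more arrays of the fit. Line comparisons and the difference of siRNA effects used all 12 arrays (8 residual degrees of freedom), and siRNA comparisons the 6 arrays of a line (4). Moderated tests (lmFit and eBayes) were two-sided, Benjamini-Hochberg adjusted over all probes, called at adjusted p under 0.05, and checked on simulated data. A gene in a list is represented by its probe of highest mean. Genes named are every member probe, up to 4 called genes per direction of each list, every detected 9p neighbour and STAT3. Also named are the 3 genes most correlated with each member. CDK4, CDK6, EZH2, SUZ12, TFDP1, SMAD2, SMAD4, APIP, PRMT5, MAT2A, NEDD8 and further probes of a gene were named after their values were seen. Replicates are independent experiments according to the series' design. A single array identifier is given for all arrays, so no slide could be tested as a batch. The alternatives were background correction, offset, filter, the authors' values, array weights, 1 probe per gene, a replicate block, the arrays in the fit and leaving out 1 array. The number of arrays limits the precision.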

Additional observations from a re-analysis of the deposited data

How the results depend on the processing

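All alternative values of the 6 tested probes kept direction and call between the lines, 88 of 88 in control cells and 88 of 88 in STAT3 siRNA cells, and the siRNA values remained uncalled throughout. In OE33 with array weights, siRNA minus control turned to -0.074 for KLHL9, -0.040 for the p16INK4a probe and 0.19 for ILMN_2376723 of CDKN2B. Leaving out 1 array gave ranges of -0.14 to 0.19, -0.025 to 0.16 and -0.16 to 0.24, with all 3 reversed without OE33 control replicate 2. The replicate numbers were not shown to pair the arrays: deviations of same-numbered arrays correlated at 0.33, -0.30 and 0.39 between OE21 siRNA and control, and at 0.06, 0.22 and 0.08 in OE33. Stronger correlations in OE21 were between differently numbered arrays, 0.51 for siRNA replicate 2 with control replicate 1 and -0.61 for siRNA replicate 3 with control replicate 1. Shared deviations in OE21 thus crossed the siRNA label, and their source was not tested. With a block for the replicate number, the count called in OE21 siRNA against control was 0 in place of 1, and no call of the set changed. That count was also 0 without the filter, with 1 probe per gene and without any 1 array (0 to 0), 5 without background correction, in the authors' normalized values and with array weights, and 10 with all 12 arrays in the fit. The difference of siRNA effects had 18 called probes with array weights against 0. With 1 probe per gene, 6260 genes were called between the lines in STAT3 siRNA cells in place of 9528 probes, as fewer features were tested. Leaving out 1 array gave 7942 to 8945 called probes in control cells (9090 with all) and 7972 to 9171 in STAT3 siRNA cells. Signal near background limits every size given for OE21 CDKN2A and CDKN2B.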
